A study of Homo sapiens with 6 samples.

Results

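Matrix metalloproteinases (MMPs) and the tissue inhibitors of metalloproteinases (TIMPs) were compared between MDA-MB-231 shBry cells and MDA-MB-231 shNC cells. The members were 10 genes picked by symbol, MMP1, MMP3, MMP7, MMP9, MMP10, MMP13, MMP14, TIMP1, TIMP2 and TIMP3, of the 54259 symbols in the count table. MDA-MB-231 cells are a long-established line of human triple-negative breast cancer with a mesenchymal phenotype. The shBry group (3 libraries) carried a short hairpin RNA directed against brachyury, a T-box transcription factor of the early mesoderm, and the shNC group (3 libraries) carried a control hairpin. No other treatment, time point or clone was named for either group. Nothing in the labels said whether the libraries of a group came from separate cultures, so the p-values measured only the spread between these libraries, which may be technical.

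MMPs are zinc-dependent endopeptidases that cleave proteins of the extracellular matrix and of the cell surface. Most are secreted as inactive proenzymes, and removal of the propeptide, for example by plasmin or by another MMP, opens the active site. TIMPs bind the active enzymes in a tight complex and block them. In breast cancer the family is studied for its part in invasion, and many of its genes are known to respond to inflammatory cytokines and growth factors through AP-1, ETS and NF-kappaB transcription factors. The values here are transcript levels and give no measure of proenzyme, active enzyme or inhibitor protein.

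The libraries held between 19319411 and 22985371 counts, and 3 counts, the limit that a count of 0 allows for counting error, corresponded to 0.126 to 0.162 CPM (counts scaled by library size). Brachyury, listed under the symbol T, had 0 counts in all 6 libraries, so the target gene gave no check of the knockdown. GEO's design text calls the RNA pericardial, whereas every sample label gives MDA-MB-231. All 8 genes of a list of MDA-MB-231 markers were detected, among them VIM with 61637 to 86917 counts, while CAV1 (log2 fold change -1.11) and S100A4 (-0.90) of that list fell in shBry. In contrast, the epithelial and hormone receptor genes CDH1, ESR1 and PGR had at most 2 counts in any library. Of that second list, EPCAM, GATA3 and FOXA1 were nevertheless detected, and EPCAM rose (log2 fold change 1.47). Of the markers of other cells, 0 counts were found in every library for DCN (fibroblasts), PTPRC and TYROBP (leukocytes), CLDN5 (endothelium) and ITLN1 (mesothelium). The summed CPM of the 8 fibroblast markers ranged from 31.8 to 35.4 in shBry and from 30.2 to 35.9 in shNC, and that of the 8 leukocyte markers, nearly all of it CD68, from 405 to 434 and from 373 to 405. The 6 endothelial markers summed to 24.3 to 26.2 against 19.2 to 21.9 CPM and the 6 mesothelial markers to 51.4 to 57.7 against 40.2 to 42.1 CPM. Other genes of these lists were detected, COL1A1 (379 to 522 counts), TIE1 (23.2 CPM in shBry and 16.1 in shNC), the mesothelial gene MSLN (45.9 and 32.1 CPM) and LRRN4, which rose (log2 fold change 0.76). The fibroblast marker PDGFRB was at 11.2 CPM in shBry and 10.6 in shNC. KDR (log2 fold change -1.02), CD14 (-1.26) and CALB2 (-2.52) were called lower. PECAM1 was not tested and had 6 counts over the shBry libraries and 28 over the shNC libraries. CALB2 had 14 to 30 counts in 5 libraries and 222 in shNC replicate 3. The part of these genes in the results below was not tested. In RNA of bulk cells, fewer cells that express a gene and less RNA per cell cannot be told apart.

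The members lay in 6 places of the genome (GRCh38, positions from GENCODE 29). MMP1 (chr11:102789920-102798160), MMP3 (chr11:102835801-102843803), MMP7 (chr11:102520508-102530753), MMP10 (chr11:102770503-102780628) and MMP13 (chr11:102942995-102955734) share 1 cluster on the minus strand of chromosome 11. MMP9 is at chr20:46008908-46016561 and MMP14 at chr14:22836557-22849027, both on the plus strand. TIMP1 (chrX:47582313-47586789, plus strand) lies within SYN1, TIMP3 (chr22:32801701-32863043, plus strand) lies within SYN3, and TIMP2 is at chr17:78852977-78925387 on the minus strand.

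Promoter sequence was held in the RefSeq table (GRCh38.p14) for 5 members, MMP7, MMP10, MMP14, TIMP1 and TIMP3, and was not found there for MMP1, MMP3, MMP9, MMP13 and TIMP2. The 250 bases before the RefSeq start are shown for 3 of them: MMP10, which rose most on the fitted scale, MMP7, a member of the same cluster with no counts, and TIMP3, which fell most. Capitals mark matches, on either strand, to the AP-1 element TGANTCA, the ETS core AGGAAG, which reads CTTCCT on the other strand, the TATA element TATAAA and the T-box element AGGTGTGA, and no matches overlapped. The sequences run 5′ to 3′ along the gene: MMP10 at chr11:102780629-102780878 (minus strand), MMP7 at chr11:102530748-102530997 (minus strand) and TIMP3 at chr22:32801455-32801704 (plus strand).
MMP10: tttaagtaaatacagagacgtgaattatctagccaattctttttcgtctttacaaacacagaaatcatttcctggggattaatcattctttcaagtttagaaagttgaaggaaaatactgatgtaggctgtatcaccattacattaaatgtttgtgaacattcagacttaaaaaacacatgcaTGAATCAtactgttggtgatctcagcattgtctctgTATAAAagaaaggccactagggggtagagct
MMP7: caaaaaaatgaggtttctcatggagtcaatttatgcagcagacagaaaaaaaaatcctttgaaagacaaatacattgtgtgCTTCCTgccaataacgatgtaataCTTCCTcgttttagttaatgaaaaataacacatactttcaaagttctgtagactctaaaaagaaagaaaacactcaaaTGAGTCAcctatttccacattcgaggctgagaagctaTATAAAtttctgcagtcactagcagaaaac
TIMP3: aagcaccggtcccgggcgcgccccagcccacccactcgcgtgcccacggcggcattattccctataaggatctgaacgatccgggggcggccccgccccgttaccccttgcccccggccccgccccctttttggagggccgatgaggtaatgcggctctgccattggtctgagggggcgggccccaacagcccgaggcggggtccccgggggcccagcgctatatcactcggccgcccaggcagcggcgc

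MMP10 and MMP7 each held an AP-1 match that began 67 bases before the start, TGAATCA in MMP10 and TGAGTCA in MMP7. Each also held a TATA match, which began 31 bases before the start in MMP10 and 30 bases before it in MMP7, and MMP7 held 2 ETS matches on the other strand, at 169 and 145 bases. TIMP1 held 1 ETS match at 87 bases, and MMP14 and TIMP3 held none of the 4 motifs. The T-box element was in none of the 5 promoters. Of the 35116 promoters in the table, 6.57% held the AP-1 match, 28.7% the ETS core, 10.7% the TATA element and 0.786% the T-box element. The GC content was 34.4% in MMP10, 33.6% in MMP7, 56.8% in MMP14, 64.8% in TIMP1 and 72.4% in TIMP3, against a median of 58% over all promoters. A match describes these letters only. MMP10 and MMP7, which both held an AP-1 and a TATA match, had 118 and 0 counts over the 3 shBry libraries.

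Genes were called changed at an adjusted p (Benjamini-Hochberg) below 0.05 in edgeR's quasi-likelihood test with a fold change above 1.5. Of the 10 members, 8 passed the filter on low counts, 7 were called, 5 of them higher in shBry (MMP1, MMP3, MMP9, MMP10 and TIMP1) and 2 lower (TIMP2 and TIMP3). Among all 15277 genes tested, 32.4% were called, 17.1% as higher and 15.2% as lower. MMP3 and MMP10 passed the filter through the shBry libraries, so the count over the members that passed is a description. With no fold limit all 8 passed, against 53.3% of all genes. The shBry and shNC values of these 8 members did not overlap, 6 being higher and 2 lower in shBry, which also held for 59.5% of all genes tested. The median log2 fold change of the 8 members was 1.06, against 0.03 for all genes tested. It was 0.60 over the 6 members with at least 10 counts in every library, without MMP3 and MMP10, and 0.89 without shBry replicate 3.

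**Figure D1:**
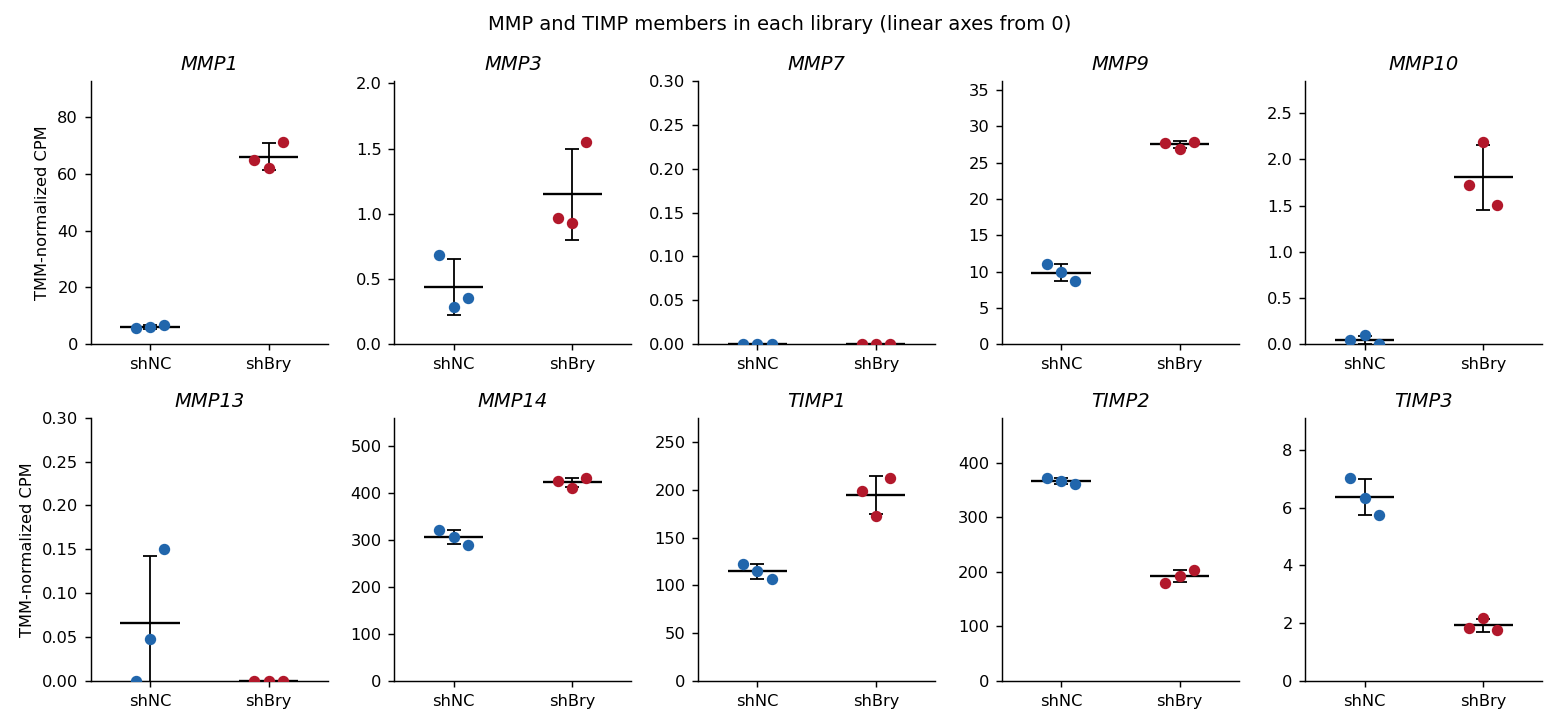
TMM-normalized CPM of the 10 members in each library (linear axis from 0, its own scale in each panel), shNC in blue and shBry in red, with the group mean (horizontal bar) and SD (error bar) of 3 libraries. The points of the 2 groups are apart for 8 members, while MMP7 is at 0 throughout and MMP13 is at 0 in every shBry library.

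The interstitial collagenase MMP1, which cleaves fibrillar collagen, showed the steepest rise among members with more than a few counts in every library. It was at 5.54, 6.05 and 6.81 CPM in the 3 shNC libraries and at 64.7, 62.1 and 71.2 CPM in the 3 shBry libraries. All shBry values were far above all shNC values. The mean was 66.0 ± 4.71 against 6.14 ± 0.638 CPM (SD, n = 3 per group), a fold change of 10.8 (log2 fold change 3.43, SE 0.12, edgeR adjusted p = 3.5e-11). The other interstitial collagenase of the list, MMP13, had 0, 1 and 3 counts in shNC and 0 in each shBry library, did not pass the filter, and no difference was detectable at this depth.

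The stromelysins MMP3 and MMP10 cleave proteoglycans, laminin and fibronectin and can activate other proenzymes. MMP10 had 1, 2 and 0 counts in shNC and 32, 52 and 34 counts in shBry. The gene was thus near the floor of 3 counts in every control library and above it in every knockdown library. Over the group the ratio was 38.2 (95% interval 12.7 to 188, counting error only), on 118 against 3 counts. The fitted log2 fold change of 5.09 (SE 0.55, edgeR adjusted p = 3.4e-06) depends on the prior count at this depth, and was 5.92 without shNC replicate 2. MMP3 was at 0.687, 0.284 and 0.351 CPM in shNC and at 0.969, 0.927 and 1.55 CPM in shBry. The groups did not overlap, but the highest control library and the lowest knockdown library were close, and the counts were only 6 to 35. The mean rose from 0.440 ± 0.216 to 1.15 ± 0.349 CPM (log2 fold change 1.37, SE 0.42, edgeR adjusted p = 0.013). This call was lost without shBry replicate 3 (1.08, adjusted p = 0.074), without shNC replicate 2 (1.11, adjusted p = 0.075) and without shNC replicate 3 (1.20, adjusted p = 0.061). Of the different 50-base stretches in the transcripts of MMP3 and MMP10, 2.88% and 3.36% also occurred in the other gene. Reads of that length could thus be divided between them at a small share of positions only. The share of exon bases inside such stretches was not computed.

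The gelatinase MMP9, which cleaves denatured collagen and basement membrane collagen, was at 11.0, 9.88 and 8.66 CPM in shNC and at 27.7, 26.9 and 27.9 CPM in shBry. The shBry libraries were close to each other and all above the highest control. The mean rose from 9.86 ± 1.19 to 27.5 ± 0.510 CPM, a fold change of 2.79 (log2 fold change 1.48, SE 0.13, edgeR adjusted p = 3.1e-07). An antisense gene, SLC12A5-AS1, covers 18.4% of the exon bases of MMP9, and its reads cannot be told apart from those of MMP9 there if the counting ignored strand. The other gelatinase, MMP2, is not a member and had a single read, in shBry replicate 2. The matrilysin MMP7, the smallest enzyme of the list, had 0 counts in all 6 libraries.

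MMP14 (MT1-MMP) is anchored in the cell membrane, cleaves pericellular collagen and activates the proenzyme of MMP2. Its level was 321, 307 and 290 CPM in shNC and 426, 411 and 431 CPM in shBry. Every shBry library was above every shNC library, and the distance between the groups was larger than the spread within them. The mean was 423 ± 10.5 against 306 ± 15.4 CPM, a fold change of 1.38 (log2 fold change 0.47, SE 0.08, 95% interval 0.30 to 0.63, edgeR adjusted p = 0.00014). This passed the p threshold and missed the fold limit, so MMP14 was not called.

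The inhibitors moved in both directions. TIMP1, a soluble inhibitor that forms a complex with the MMP9 proenzyme, was at 123, 115 and 107 CPM in shNC and at 199, 173 and 212 CPM in shBry. All shBry values were above the controls, with the widest spread among the knockdown libraries. The mean rose from 115 ± 7.80 to 195 ± 19.7 CPM (fold change 1.69, log2 fold change 0.76, SE 0.09, edgeR adjusted p = 9.3e-06). TIMP2, which inhibits MMP14 and also bridges MMP14 and the MMP2 proenzyme, was at 371, 366 and 360 CPM in shNC and at 180, 192 and 202 CPM in shBry. The groups were well apart and the control libraries nearly level. The mean fell from 366 ± 5.34 to 191 ± 11.0 CPM (log2 fold change -0.93, SE 0.08, edgeR adjusted p = 2.1e-07), a 1.91-fold lower level. TIMP3, the inhibitor that stays bound to the matrix and also blocks ADAM proteases, was at 7.01, 6.33 and 5.76 CPM in shNC and at 1.83, 2.19 and 1.77 CPM in shBry. Its lowest control library was still above its highest knockdown library. The mean fell from 6.37 ± 0.626 to 1.93 ± 0.227 CPM, a 3.28-fold lower level (log2 fold change -1.72, SE 0.20, edgeR adjusted p = 5.5e-06). CEP295NL, with at most 7 counts in any library, covers 3.52% of the exon bases of TIMP2, and an antisense gene with no symbol in the count table covers 6.51%.

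**Figure D2:**
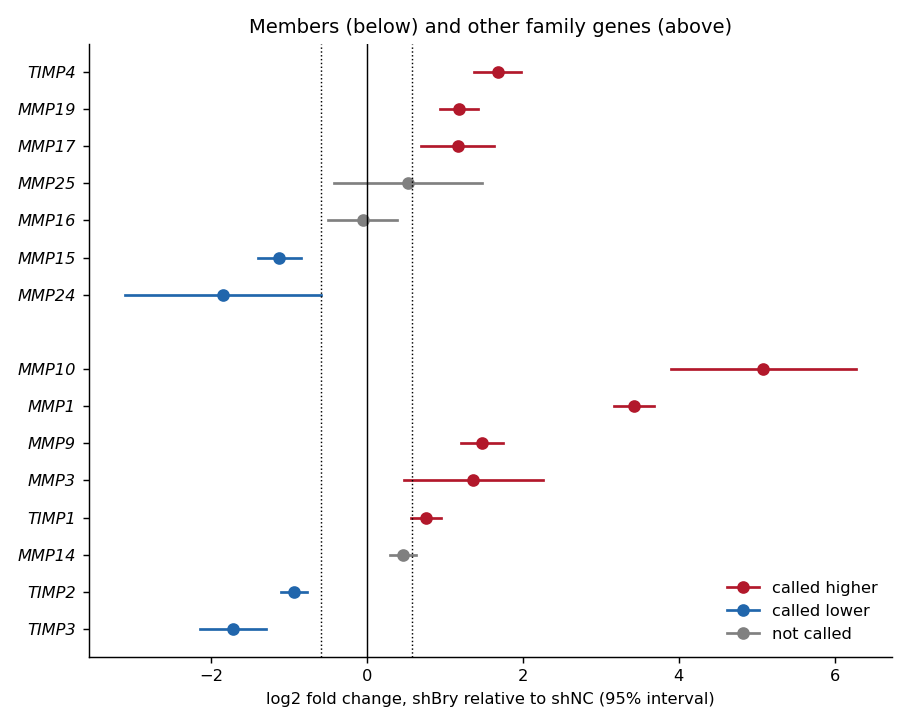
Fitted log2 fold change of shBry relative to shNC (points) with its 95% interval (lines) for the 8 members tested (lower block) and the 7 other family genes tested (upper block), with red for called higher, blue for called lower and grey for not called, and dotted lines at the fold limit of 1.5. MMP10 (5.09) and MMP1 (3.43) are farthest to the right and TIMP3 (-1.72) is the member farthest to the left.

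Levels of different genes were compared only per length, as TMM-normalized CPM per kilobase of exon in the basic transcript set (given as RPKM). In shNC cells TIMP2 was highest at 89.8 ± 1.31 RPKM, followed by MMP14 at 82.0 ± 4.12 and TIMP1 at 78.8 ± 5.34, and the latter pair overlapped. MMP9 (4.22 RPKM), MMP1 (3.11), TIMP3 (1.38) and MMP3 (0.219) followed without overlap between neighbours, and MMP10 (0.0266), MMP13 (0.0232) and MMP7 (0) overlapped at the bottom. In shBry cells the order was TIMP1 (133 ± 13.5 RPKM), MMP14 (113 ± 2.80), TIMP2 (47.0 ± 2.71), MMP1 (33.5 ± 2.39), MMP9 (11.8 ± 0.218) and MMP10 (1.03 ± 0.199). Neighbours down to this rank did not overlap, whereas MMP3 (0.570) and TIMP3 (0.420) did, and MMP7 and MMP13 were at 0. MMP1 thus stood below MMP9 in shNC and above it in shBry, and TIMP1 stood below TIMP2 in shNC and above it in shBry. The second of these orders depended on the gene length used: with the longest transcript in place of all exon bases, TIMP1 was at 105 and TIMP2 at 100 RPKM in shNC and at 178 and 52.4 RPKM in shBry.

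The levels per length of the 7 MMP members summed to 160 ± 5.18 RPKM in shBry and 89.6 ± 4.38 RPKM in shNC. Those of the 3 TIMP members summed to 181 ± 14.6 and 170 ± 6.79 RPKM. Family genes that are not members were left out of these sums. Among them TIMP4 was at 15.1 RPKM in shBry and 4.71 in shNC, MMP19 at 11.7 and 5.16, and MMP15 at 3.30 and 7.16. The ratio of the MMP sum to the TIMP sum was 0.532, 0.526 and 0.523 in the shNC libraries and 0.887, 0.932 and 0.846 in the shBry libraries. The groups did not overlap in this ratio, which stayed below 1 in every library. MMP14 made up 91.5% of the MMP sum in shNC and 70.7% in shBry. TIMP2 made up 52.9% of the TIMP sum in shNC and 26.1% in shBry. The ratio of MMP14 to TIMP2 was 0.913 ± 0.0326 in shNC and 2.42 ± 0.142 in shBry, that of MMP1 to TIMP1 was 0.0398 ± 0.00688 and 0.252 ± 0.0125, and that of TIMP1 to TIMP2 was 0.877 ± 0.0468 and 2.84 ± 0.285. With the longest transcript as the length the ratio of the sums was 0.434 in shNC and 0.696 in shBry. These ratios combine members whose own tests are given above and received no further test.

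**Figure D3:**
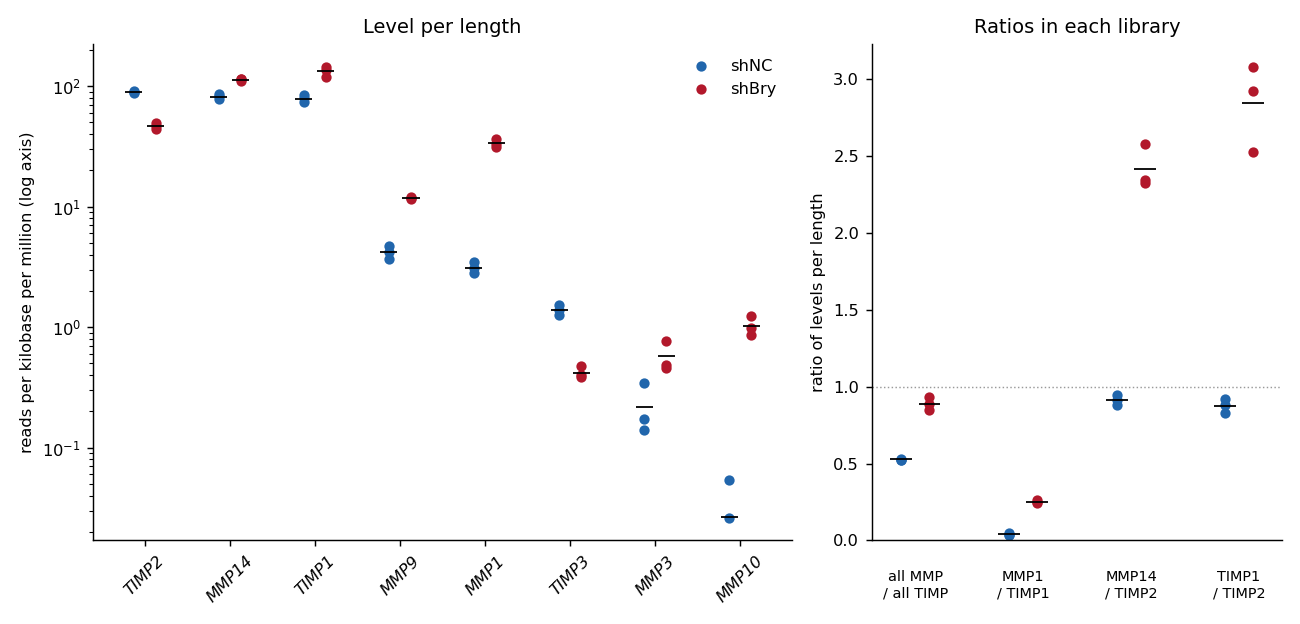
Left, level per length in RPKM, TMM-normalized (log axis), of the 8 members with counts in both groups, ordered by their shNC mean, with points for libraries (a library at 0 is not drawn) and bars for group means. Right, ratios of levels per length in each library on a linear axis from 0, with a dotted line at 1, where the ratio of all MMP to all TIMP members is 0.527 on average in shNC and 0.888 in shBry.

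The cluster on chromosome 11 holds 9 family genes over 435.2 kb, in the order MMP7, MMP20, MMP27, MMP8, MMP10, MMP1, MMP3, MMP12 and MMP13. The 3 that were tested, MMP10, MMP1 and MMP3, lie next to each other over 73.3 kb and were all called higher in shBry. Among all genes tested, 17.1% were called higher. MMP10 and MMP3 passed the filter through the shBry libraries, so this count is a description. The MMP3 call was also lost when some single libraries were left out, as given above. The other 6 genes of the cluster had at most 3 counts in any library, and MMP7, MMP20, MMP27 and MMP8 had 0 in all of them. Of the 6 coding neighbours tested within 500 kb, BIRC3, an inhibitor of apoptosis that is a known NF-kappaB target, was called higher (log2 fold change 2.28, SE 0.18). The others were not called. YAP1 (0.55, edgeR adjusted p = 0.00038), DCUN1D5 (0.56, 0.00058) and BIRC2 (0.50, 0.024) were higher and missed only the fold limit. TMEM123 (-0.07) and DYNC2H1 (-0.30) passed neither threshold. With no fold limit 53.3% of all genes tested passed. The pseudogene WTAPP1 runs through MMP10 and MMP1 on the opposite strand and had 0, 2 and 3 counts in shNC and 14, 27 and 8 counts in shBry. It shares 7.61% of the exon bases of MMP1 and none of those of MMP10, so without strand its reads and those of MMP1 cannot be told apart over that stretch.

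**Figure D4:**
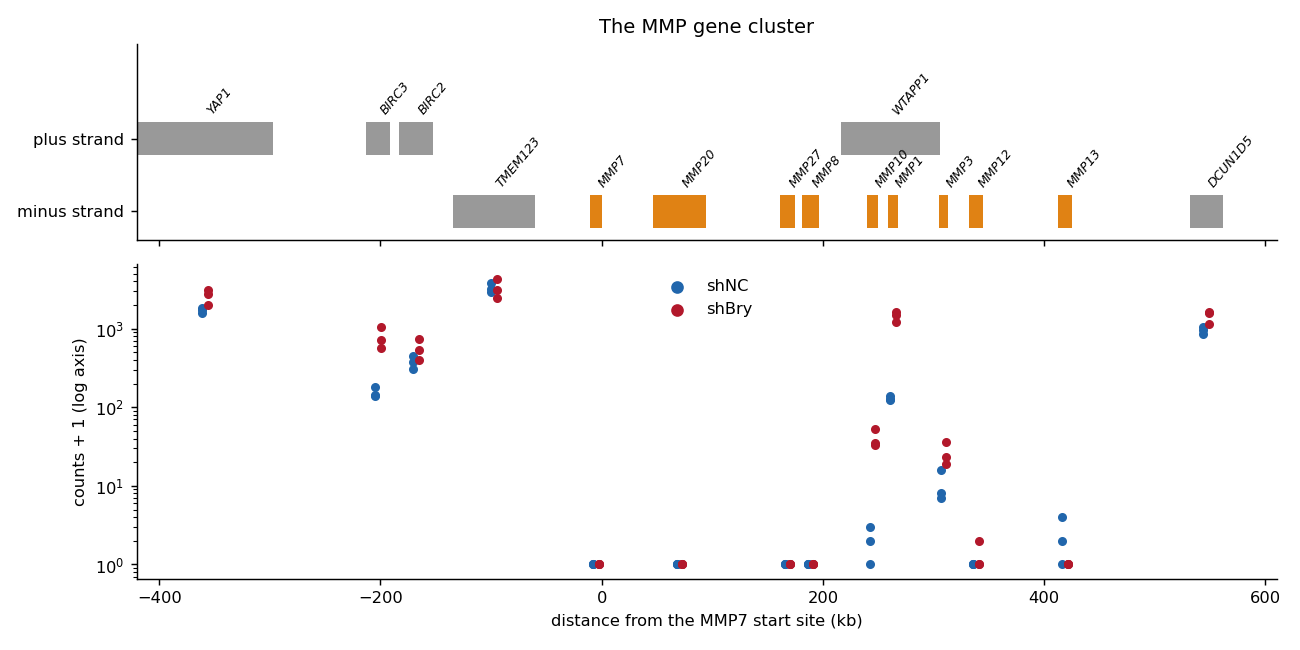
Top, genes of the chromosome 11 cluster (orange) and its tested neighbours and WTAPP1 (grey) by strand, placed by distance from the MMP7 start in kb, with DYNC2H1 beyond the right edge left out. Bottom, counts plus 1 (log axis) of the same genes other than WTAPP1 in each shNC (blue) and shBry (red) library, in which MMP10, MMP1 and MMP3 are the cluster genes with counts above 3.

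The remaining MMP and TIMP genes comprised 17 symbols. Of these, 7 were tested and 5 called, 3 higher and 2 lower, with a median log2 fold change of 0.53. The share called was 71.4%, against 32.4% of all genes tested. MMP24 passed the filter through the shNC libraries, so the count called is a description. With at least 10 counts in every library 4 genes of this list were called. TIMP4, the fourth inhibitor, rose from 7.77 ± 1.05 to 24.9 ± 2.54 CPM (log2 fold change 1.68, SE 0.14, edgeR adjusted p = 2.8e-07). MMP19, a broad-spectrum secreted enzyme, rose from 12.2 ± 0.487 to 27.7 ± 1.52 CPM (1.18, SE 0.12, adjusted p = 1.2e-06). The membrane-anchored enzymes differed in direction. MMP17 rose from 2.49 ± 0.321 to 5.62 ± 1.27 CPM (1.17, SE 0.22, adjusted p = 0.00047), whereas MMP15 fell from 30.4 ± 3.76 to 14.0 ± 1.49 CPM (-1.12, SE 0.13, adjusted p = 7e-06). MMP24 had 21, 12 and 14 counts in shNC and 9, 2 and 2 in shBry and was called lower (-1.84, SE 0.59, adjusted p = 0.017), a call that was lost without shBry replicate 3 (adjusted p = 0.072) or shNC replicate 1 (adjusted p = 0.074). Without shBry replicate 1 the MMP24 value was -3.03 (adjusted p = 0.0012). MMP16 (-0.05, 95% interval -0.49 to 0.39) and MMP25 (0.53, 95% interval -0.42 to 1.48) were not called. Genes on the opposite strand cover 17.4% of the exon bases of MMP19, 21.8% of MMP24, 35.2% of MMP25 and 10.3% of TIMP4.

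Genes that act on the MMPs after translation were taken as a list of activating proteases, their inhibitors and MMP-binding proteins. Of its 21 genes, 18 were tested, 9 rose and none fell by the call, with a median log2 fold change of 0.62. The share called was 50%, against 32.4% of all genes tested. LCN2, SERPINB2 and SPOCK2 passed the filter through the shBry libraries. SPOCK2, another called gene of this list, had 10, 7 and 4 counts in shNC and 11, 21 and 17 in shBry. With at least 10 counts in every library 6 genes of this list were called. LCN2 (lipocalin 2, which binds MMP9) had 1, 1 and 3 counts in shNC and 1092 to 1233 in shBry, a ratio of 689 (95% interval 295 to 2124, counting error only). SERPINB2 (PAI-2), an inhibitor of the plasminogen activator urokinase, had a ratio of 46.9 (22.5 to 117) on 338 against 7 counts. SERPINE2 (1.21) and the urokinase receptor PLAUR (0.93) were the next by adjusted p. The rise thus included both the receptor of an activating protease and inhibitors of that protease. RECK, a membrane-bound MMP inhibitor, was at -0.50 (SE 0.15, edgeR adjusted p = 0.011), under the fold limit.

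The factors known to act at MMP promoters were represented by 22 AP-1, ETS, NF-kappaB and related genes. All were tested, 12 rose and 1 fell, with a median log2 fold change of 0.85. The share called was 59.1%, against 32.4% of all genes tested. ATF3 (3.05) and JUNB (1.96) of the AP-1 family and RELB (2.05) and NFKB2 (1.62) of the NF-kappaB family had the smallest adjusted p, and ETV1, an ETS factor, was the gene that fell (-1.03). Among 18 signals and receptors known to induce MMPs, 15 were tested, 7 rose and none fell by the call, with a median of 0.41. The share called was 46.7%, against the same 32.4% of all genes. All 7 were ligands, and no receptor of the list was called. IL6 and EREG, another of these ligands, passed the filter through the shBry libraries. With at least 10 counts in every library these genes were not tested, and 5 genes of this list were called. IL1A (6.82), IL6 (6.81) and IL1B (5.09), cytokines that induce MMP1 and MMP3 in many cells, and the EGF receptor ligand HBEGF (2.32) had the smallest adjusted p of this list. IL6 had 10, 10 and 7 counts in shNC and 854, 1090 and 1232 in shBry. TNF was at 0 counts in all libraries.

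By the Euclidean distance of centred log2 CPM over the 6 libraries, the genes nearest to MMP10 were RPLP0P2 (0.405), C3 (0.520), EGR1 (0.748), TXNIP (0.755) and TREM1 (0.771). RPLP0P2 is a pseudogene of a ribosomal protein gene, and its counts are uncertain because reads of its parent could be divided between the copies. All 5 had their high values in the 3 shBry libraries, as MMP10 did. This follows from how they were picked, since MMP10 was chosen for its change and nearness was measured over the same 6 libraries. The log2 CPM held a prior count, which makes the change of MMP10, near 0 in shNC, smaller than the fitted value.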

How the data were processed

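RNA-Sequence data of MDA-MB-231 shBry (n = 3) and MDA-MB-231 shNC (n = 3) cells were analysed. The authors deposited raw counts, whole numbers of reads per gene symbol and library, without normalization. The submitters' processing notes name HISAT2 (2.0.4), HTSeq and GRCh38, while the annotation and the strand setting are not given in the sources used here. Overlapping and antisense genes may therefore share counts. The study's methods give a p and a fold change threshold of 1.5 for these data and tie no named test to them.

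Genes were filtered with filterByExpr (minimum count 10), scaled by TMM and tested with edgeR (4.0.16, R 4.3.3) by the quasi-likelihood test. The fit covered all 15277 genes, p-values were adjusted by Benjamini-Hochberg over all of them, and the SE was derived from the F statistic. CPM values are TMM-normalized. Levels per length used all exon bases of a gene over its transcripts in the basic set of GENCODE 29. The shares of exon bases covered by other genes used the full GENCODE 29 set. For TIMP2 the full set holds more exon bases than the basic set, and levels on the full set were not computed. Counts differed between replicates by more than the sampling noise (chi-square per degree of freedom 4.70 to 15.5), so no library was counted as a repeat. DESeq2 (1.42.0) and limma-voom (3.58.1), other filters, scalings and thresholds, a replicate block and leaving out each library were the alternatives. Protein features were planned and not analysed here.

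The members and lists were chosen with earlier results of these data known. All members are named. From each other list up to 4 called genes were named by adjusted p, provided that their mean reached 1 CPM, together with every called gene of the MMP and TIMP family and the 5 genes nearest to the called member with the largest change and at least 10 counts in each library of its higher group. MMP2, RECK, SPOCK2, TNF, EREG, ETV1, WTAPP1, LAMA3 and COL1A1 were named in addition, after their values were seen. So were the marker genes, the neighbours of the cluster, MMP16 and MMP25. Some genes of the lists are not reported here by name.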

Additional observations from a re-analysis of the deposited data

How the results depend on the processing

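The signs of 2 genes that were not called changed. MMP16 (-0.05) lay between -0.16 and 0.048 when 1 library was left out and was positive without shBry replicate 1 (0.048) and without shNC replicate 1 (0.033). MMP25 (0.53) lay between -0.034 and 0.74 and was negative without shBry replicate 3. The 8 members tested and the 5 other family genes called kept their direction under every alternative that tested them. The genes called (4945) became 2297 with a fold limit of 2 and 8139 with no fold limit, and lay between 4587 and 5025 when 1 library was left out. The members called (7) were 6 or 7 when 1 library was left out and 7 with DESeq2, limma-voom, library sizes without TMM, no expression filter and unadjusted p. They became 5 with a fold limit of 2, which removed TIMP1 and TIMP2, 5 with at least 10 counts in every library, where MMP3 and MMP10 were not tested, and 8 with no fold limit, which added MMP14. MMP3, with 6 to 35 counts, lost its call without shBry replicate 3, shNC replicate 2 or shNC replicate 3, and MMP24 without shBry replicate 3 or shNC replicate 1. The mean TIMP1 level in shBry was 133 RPKM and moved to 178 with the length of the longest transcript, an alternative added after seeing the data, because that transcript is shorter than all exon bases. Genes of the other lists called (48) lay between 38 and 66 over the alternatives. The matrix list moved from 7 to 4 called genes with a fold limit of 2.

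The replicate numbers showed no clear pairing of the samples. The deviations of same-numbered libraries correlated at 0.183, -0.084 and -0.028, and shBry replicate 2 correlated best with shNC replicate 3 (0.227). Within a group the deviations depend on each other, so these correlations cannot exclude a pairing. With the replicate block 4914 genes, 7 members and 47 genes of the other lists were called.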

Other observations

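Related proteases and the matrix proteins that MMPs cleave were measured as well. Of 25 ADAM and ADAMTS genes, 17 were tested, 7 rose and none fell by the call, with a median log2 fold change of 0.32 against 0.03 for all genes tested. The share called was 41.2%, against 32.4% of all genes tested. ADAMTS6 (0.90), ADAMTS1 (1.13), ADAM8 (1.02) and ADAMTS17 (1.24) had the smallest adjusted p by edgeR. ADAMTS1 cleaves the proteoglycans aggrecan and versican, and ADAM8 is a membrane-bound protease of leukocytes and tumor cells. Of 22 matrix genes, 13 were tested, 6 rose and 1 fell, with a median of 0.57 and 53.8% called. Among those that rose were the laminin gene LAMB3 (1.79), tenascin C (TNC, 1.56) and the basement membrane collagen gene COL4A1 (1.22). LAMA3, another laminin gene, was the gene that fell (-0.69). COL1A1, a chain of the fibrillar collagen that MMP1 cleaves, was at 0.00 (SE 0.12, 95% interval -0.26 to 0.26).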
